A study of Mus musculus with 24 samples.

Results

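The genes described here encode collagens, laminins, nidogens, fibulins, tissue inhibitors of metalloproteinases, matrix metalloproteinases and a group of stromal matrix proteins, measured in choroid plexus, the tissue in the brain ventricles that makes cerebrospinal fluid. They were chosen by symbol: every collagen chain (Col, a number, a and a number), every numbered laminin chain, every fibulin and fibrillin, every numbered Timp and Mmp, and Nid1, Nid2, Fn1, Sparc, Dcn, Lum, Bgn, Ogn, Postn, Lox and Pdgfra. Of 84 such genes with a named probe on the array, 47 had a probe with a detection p-value under 0.01 on at least 3 of 24 arrays and form the set, out of 8232 genes that passed the same filter. Each was read by its brightest passing probe. The other 37 did not pass, and Fn1 and Fbn1 matched no named probe. The filter looks at all arrays together, so a gene could pass through 1 group alone, and counts over the 47 are counts over passing genes.

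RNA came from the choroid plexus of 24 mice, each on 1 Illumina BeadChip array. Wild-type animals (WT, without the transgene) numbered 3 at 3 months, 4 at 5-6 months and 6 at 11-12 months, and J20 animals numbered 4, 4 and 3 at the same ages. J20 mice, written AD in the sample titles, carry a human amyloid precursor protein transgene with familial Alzheimer's disease mutations under the PDGF-B promoter, which drives it in neurons, so the choroid plexus lies beside the tissue that expresses the transgene most. Sex of the animals is not given in the sources used here, and nothing in the labels says that tissue of several animals was pooled. The number given to each animal below is the one that ends its sample title.

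The epithelial cells of the choroid plexus sit on a basement membrane that encloses a stroma with leaky, fenestrated capillaries, fibroblasts and macrophages. Basement membranes are built from a network of type IV collagen and a network of laminin trimers, joined by nidogens and proteoglycans. Fibrillar collagens and small leucine-rich proteoglycans fill the stroma behind it, Lox crosslinks collagen and elastin, metalloproteinases cut matrix proteins, and TIMPs inhibit them.

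The arrays carried signal of the tissue named in the labels: Ttr, the transport protein that choroid epithelium makes in bulk, had a group mean log2 intensity between 14.94 and 15.03. Neuronal marker means ran from 5.12 in J20 animal 2 of 3 months to 8.41 in WT animal 13 of 11-12 months. Glial marker means ran from 5.97 to 7.89 in the same animals. How much adjoining brain each sample held was not tested. The App probe gave no call between genotypes at 3, 5-6 or 11-12 months (adjusted p = 0.999, 1 and 0.834 in limma). Whether a probe designed for mouse App reads the human transgene was not tested. Array mean intensity ran from 358.4 to 765.4, between 8987 and 10699 of 25697 probes were detected per array, and 31 to 42 of the 47 matrix genes were. Arrays were assigned 8 to a BeadChip, the glass slide they share, in blocks that follow the order of the samples. The sample titles do not name the slide, so this assignment is an assumption throughout. Of the 3 slides so assigned, BeadChip 1 had none of the J20 animals of 11-12 months. On a slide many groups are a single animal, such as WT of 3 months on each (animals 1, 15 and 22). J20 of 11-12 months is animal 21 alone on BeadChip 2. Values below are log2 intensities after background correction and quantile normalization. A probe's intensity depends on its sequence, so it ranks no gene's expression against another's. In whole tissue, fewer cells of a type and less RNA per cell cannot be told apart.

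No matrix gene was called different between genotypes or ages. In none of the 13 pairwise and pooled comparisons of groups, nor in the genotype by age interaction, did any of the 47 pass a Benjamini-Hochberg adjusted p of 0.05 in limma. All 47 log2 differences were under 1 in size in every comparison. What set animals apart was a level that many of the genes shared within groups, described next. Other matrix genes and endothelial, pericyte, fibroblast and macrophage markers went with that level, and its cause was not tested.

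After the group means were removed, 1 principal component held 53.06% of the variance of the 47 genes over the 24 arrays, and the second held 16.54%. The highest loadings on the first belonged to Col4a1 (0.332), a chain of the main basement membrane collagen, Col6a1 (0.306), a chain of the beaded-filament collagen VI, and Lamc3 (0.291), a laminin gamma chain. Col23a1 (0.284), a membrane-spanning collagen, and Col26a1 (0.259) came next. Col4a3 (-0.109), a chain of the collagen IV of specialised basement membranes, Mmp19 (-0.081), a secreted metalloproteinase, and Fbln7 (-0.081), a fibulin, had the lowest. A loading also grows with a gene's spread. Col4a1 and Col6a1 had the largest within-group SDs (0.774 and 0.7). Bgn, the gene most like the mean of the others (r = 0.958), had a loading of 0.185. The second component had a loading of 0.52 for Lum, a keratan sulfate proteoglycan that shapes collagen fibrils, 0.306 for Col4a2 and 0.273 for Sparc.

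**Figure D1:**
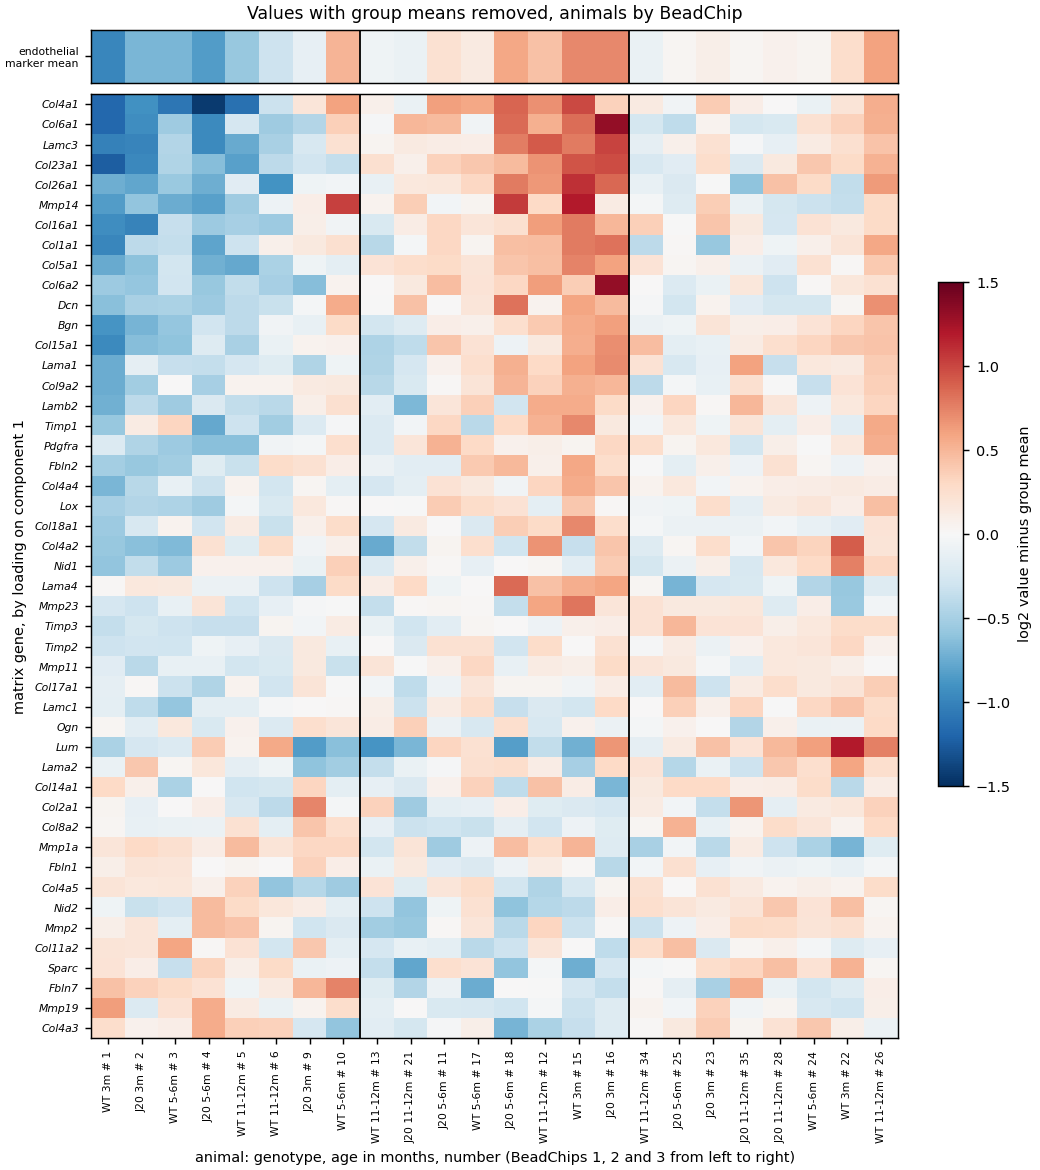
Each column is 1 animal and each row 1 of the 47 matrix genes, coloured by its log2 intensity minus the mean of the animal's group (scale -1.5 to 1.5); rows follow the loading on component 1, lines part the 3 BeadChips, and the strip on top is the mean of 12 endothelial markers. Within each BeadChip, columns are sorted by the mean of the plotted values, so a rise from left to right there follows from the order. Many of the upper rows are low together in the left columns of BeadChip 1 and high together in the right columns of BeadChip 2. The strip moves with them.

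The mean of the 47 genes, as a log2 difference from each gene's mean over animals, was 0.053 ± 0.331 (SD, n = 3) in WT at 3 months, 0.006 ± 0.161 (n = 4) at 5-6 months and -0.096 ± 0.194 (n = 6) at 11-12 months. In J20 it was 0.035 ± 0.239 (n = 4), 0.043 ± 0.155 (n = 4) and 0.027 ± 0.092 (n = 3). The group means lay closer together than the animals of each group. Single animals ran from -0.32 (WT at 3 months, animal 1) to 0.313, which WT animal 15 and J20 animal 16, both of 3 months, reached. The BeadChips took part of this spread. The score ran from -0.32 to 0.065 with a median of -0.244 on BeadChip 1, from -0.247 to 0.313 (median 0.123) on BeadChip 2 and from -0.09 to 0.168 (median 0.08) on BeadChip 3. Of the 47 genes, 32 had their lowest chip mean on BeadChip 1. The BeadChip held a median of 39.3% of a matrix gene's within-group variance, against 29.6% over all tested probes, with 81.6% for Col5a1, a chain that starts collagen fibrils, and 1.1% for Ogn, a small stromal proteoglycan. What differed between the BeadChips besides the animals on them was not tested.

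Endothelial markers moved with the matrix genes. Over the 24 arrays the group-centred mean of 12 endothelial markers (12 of 15 listed passed) had a Pearson r of 0.948 with that of the matrix genes. This r is a description, because both means come from the same arrays and arrays share BeadChips. The endothelial mean ran from 6.69 in a J20 animal of 5-6 months to 8.49 in a WT animal of 3 months, and its BeadChip means were 7.06, 7.86 and 7.67. Pericyte and smooth muscle markers (10 of 12) had an r of 0.86, other fibroblast markers (8 of 14) 0.787, macrophage markers (9 of 12) 0.769 and meningeal fibroblast markers (9 of 15) 0.708. Neuronal markers (6 of 10) had 0.248, glial markers (7 of 10) 0.224 and choroid epithelial markers (11 of 16) -0.489. The endothelial means spanned 6.79 to 8.49 in WT and 6.87 to 8.27 in J20 at 3 months, 6.81 to 8 and 6.69 to 8.11 at 5-6 months, and 6.81 to 7.98 and 7.52 to 7.68 at 11-12 months. The part of vascular content in the matrix values was not tested.

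**Figure D2:**
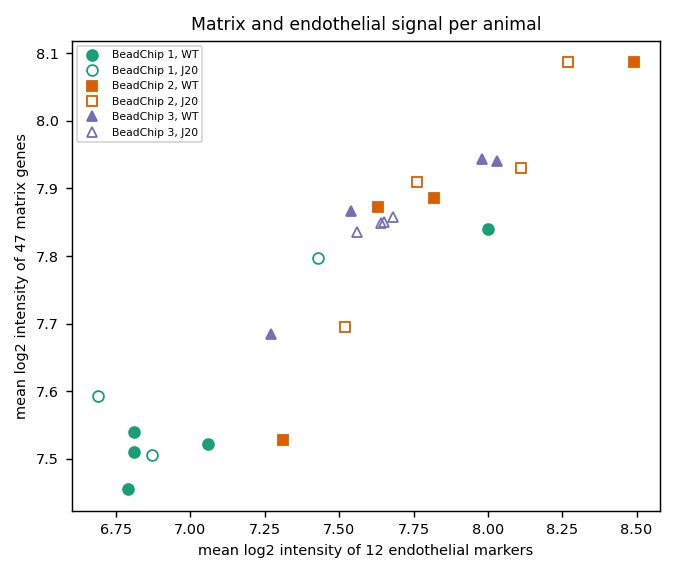
Each point is 1 animal, placed by the mean log2 intensity of 12 endothelial markers (x axis) and of the 47 matrix genes (y axis), with the shape giving the BeadChip and open symbols J20. Both rise together from the lower left, where most animals of BeadChip 1 lie, to 1 WT and 1 J20 animal of BeadChip 2 at the upper right.

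Of genes outside the set, the 10 whose group-centred values were most like the matrix mean were Arap3 (r = 0.967), Fxyd5 (0.955), Plvap (0.952), Esam (0.949), Eng (0.946), Ltbp4 (0.945), Nupr1 (0.94), Alpl (0.938), Ecm1 (0.935) and Mmrn2 (0.931), each over 24 arrays. Plvap forms the diaphragms of fenestrated capillaries, Esam is an endothelial adhesion molecule and Eng a TGF-beta coreceptor of endothelium. Within the set, Bgn, a stromal proteoglycan of the same class as decorin, had the highest r with the mean of the others (0.958), followed by Lamc3 (0.888), Col16a1 (0.885), Col15a1 (0.882) and Col23a1 (0.873). The lowest was Mmp19 at -0.543. Among the 5 brightest probes r was 0.676 for Timp2, -0.161 for Sparc, 0.647 for Timp3, 0.716 for Dcn and -0.479 for Fbln1. Not all genes of the set followed the shared level. The genes also differed in how much they varied. Within groups the SD was largest for Col4a1 (0.774), Col6a1 (0.7), Lum (0.665), Col23a1 (0.654) and Lamc3 (0.646), and smallest for Fbln1 (0.183), Mmp11 (0.22), Ogn (0.223), Timp2 (0.225) and Timp3 (0.264). The median was 0.37, against 0.315 over all tested probes. Each SD is that of the gene's brightest probe. Second probes of Fbln1 and Timp3 varied more, with SDs of 0.674 and 0.485, and that of Col6a1 had 0.599.

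Among the fibrillar collagens, 4 of 11 on the array passed. Col1a1, the alpha 1 chain of collagen I, was at 6.68 ± 0.89 (n = 3), 6.45 ± 0.25 (n = 4) and 5.99 ± 0.44 (n = 6) in WT from 3 to 11-12 months, and at 6.82 ± 0.62 (n = 4), 6.65 ± 0.56 (n = 4) and 6.49 ± 0.08 (n = 3) in J20. All of these groups overlapped their neighbours. At 3 months its WT values were 5.71, 6.88 and 7.46, so 1 group spanned nearly the whole range of the gene. Its log2 differences ran from -0.69 (WT, 11-12 minus 3 months) to 0.49 (J20 minus WT at 11-12 months), and the smallest adjusted p over the 13 comparisons was 0.7 in limma. Col5a1 was the brightest probe of the role, with a mean of 7.32, and Col2a1, the collagen of cartilage, the dimmest, with 5.04 and detection on 3 arrays. Col11a2, a minor cartilage collagen chain, was detected on 4. The probes of Col1a2 and Col3a1, the partner chain of Col1a1 and the collagen of compliant tissues, were detected on 0 arrays, as was that of Postn, a matricellular protein of stroma.

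Of the basement membrane collagens 7 of 9 passed. Col18a1, which carries endostatin at its end, was the brightest (mean 11.18). The log2 differences of its brightest probe were among the smallest, from -0.06 to 0.09. Its second probe stood at 0.24 between 11-12 and 3 months over both genotypes and at -0.06 in J20 minus WT at 11-12 months. Col4a1 and Col4a2 encode the chains that assemble into the common collagen IV trimer, and they are transcribed in opposite directions from a region they share. Col4a1 ran from 6.5 to 9.05 over all animals. In J20 at 11-12 months its values were 8.11, 8.22 and 8.31, and in WT of that age they ran from 6.5 through a median of 7.73 to 8.31. The J20 animals thus lay at the upper end of the WT values and overlapped them (log2 difference 0.59, adjusted p = 0.704 in limma). The difference was 0.28 in the fit with slide terms, and 0.1 and 0.3 within BeadChips 2 and 3. BeadChip 1 holds no J20 animal of that age. Col15a1, a collagen XVIII relative and the dimmest of the role (5.43, detected on 9 arrays), had its lowest difference at -0.57 between 11-12 and 3 months in J20.

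Col4a2 had the lowest difference of the set between 11-12 and 3 months over both genotypes. At 3 months its log2 intensity was 6.71, 6.93 and 8.19 in WT and 7.04, 7.61, 7.93 and 8.09 in J20. At 5-6 months it was 6.35, 7.1, 7.27 and 7.35 in WT and 6.63, 6.96, 6.97 and 7.16 in J20. At 11-12 months WT ran from 5.96 through a median of 6.72 to 7.39, and J20 animals were at 6.5, 6.83 and 7.28. The older animals were lower on average, and in both genotypes the ages overlapped. The log2 difference between 11-12 and 3 months over both genotypes was -0.68 (SE 0.238, 95% interval -1.18 to -0.19, unadjusted p = 0.00916, adjusted p = 0.427 in limma). Within BeadChips 2 and 3 it was -0.93 and -1.18, and -0.79 in a fit that held a term for the slide (adjusted p = 0.183 in limma). In WT alone the difference was -0.56 and within the 3 BeadChips 0.05, -0.26 and -1.48, and in J20 alone it was -0.8. Each of those WT values within a BeadChip has 1 animal of 3 months.

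The windows from 250 bases before to 50 after a listed start of each of these partner genes are shown because they overlap. The annotated Col4a1 gene reaches to chr8:11312889, upstream of the start used for its window. The length of the overlap thus depends on the start used. They are RefSeq sequences on GRCm38.p6, 5′ to 3′ along each gene, Col4a1 on the minus strand at chr8:11312777-11313076 and Col4a2 on the plus strand at chr8:11312555-11312854. Capitals mark the 78 bases that both windows hold, chr8:11312777-11312854, which read as reverse complements of each other.
Col4a1: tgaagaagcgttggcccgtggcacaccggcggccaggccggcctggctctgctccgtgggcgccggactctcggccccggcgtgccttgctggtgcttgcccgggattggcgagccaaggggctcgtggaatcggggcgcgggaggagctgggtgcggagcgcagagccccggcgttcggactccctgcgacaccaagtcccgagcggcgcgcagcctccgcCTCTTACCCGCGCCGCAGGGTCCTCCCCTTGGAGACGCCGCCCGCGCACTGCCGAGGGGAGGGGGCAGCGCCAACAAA
Col4a2: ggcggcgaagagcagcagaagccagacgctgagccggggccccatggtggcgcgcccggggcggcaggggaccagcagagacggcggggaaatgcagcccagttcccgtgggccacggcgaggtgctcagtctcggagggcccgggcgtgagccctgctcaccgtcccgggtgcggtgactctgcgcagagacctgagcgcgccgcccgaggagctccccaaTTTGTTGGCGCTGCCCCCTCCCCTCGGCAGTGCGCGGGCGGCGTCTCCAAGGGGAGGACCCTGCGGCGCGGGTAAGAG
The windows are 74.0% and 73.7% G and C. The motif CCAAT, searched on both strands, occurs 1 time in each, GGGCGG 1 time and 3 times, and TATAAA 0 times. Of 32 matrix genes with a window in the RefSeq table, 11 (34.4%) held CCAAT, 20 (62.5%) GGGCGG and 4 (12.5%) TATAAA, against 37.9%, 35.9% and 14.2% of all 27025 windows. The median G and C content was 61.3% and 52.7%. These are matches of letters and not sites of binding.

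Over the 24 animals the group-centred values of Col4a1 and Col4a2 had a Pearson r of 0.333 and a Spearman rho of 0.259 (permutation p = 0.112 and 0.221, 2-sided, adjusted p = 0.206 and 0.347 over 11 pairs). Within the 3 BeadChips r was 0.397, 0.28 and 0.058, each over 8 arrays, and without the 2 animals farthest in Col4a1 it was 0.36. Col4a1 had loadings of 0.332 and -0.027 on the first and second component, and Col4a2 of 0.089 and 0.306. Each gene was read by 1 probe, so a weak relation of the probes was not separated from a weak relation of the transcripts. Col4a3 and Col4a4, partner chains of the collagen IV of specialised basement membranes, had an r of -0.306 (rho -0.224, permutation p = 0.147 and 0.289, adjusted p = 0.223 and 0.398); this pair was added after its values were seen, and Col4a3 was detected on 8 arrays only.

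Of other collagens 9 of 17 passed. Col6a1 and Col6a2, the alpha 1 and alpha 2 chains of collagen VI, lie on chromosome 10 (76708792 to 76726044 and 76595756 to 76623630 in the RefSeq annotation of GRCm38.p6). They moved together: r was 0.887 and rho 0.883 over 24 animals (permutation p = 1e-05 for both, the smallest that 100000 permutations can give, adjusted p = 0.00011 for both), and r was 0.86 without the 2 farthest animals. Within BeadChips r was 0.808, 0.775 and 0.625 over 8 arrays each (exact permutation p = 0.0215, 0.0191 and 0.104, adjusted over the pairs 0.237, 0.105 and 0.38). The relation kept its sign on every BeadChip, and none of the within-BeadChip values passed after adjustment. Each gene also followed the mean of the other matrix genes, with r of 0.819 for Col6a1 and 0.758 for Col6a2. Whether the 2 chains go together beyond that shared level was not tested. Col6a1 was highest in J20 animal 16 of 3 months (9.34), where Col6a2 was also highest (6.57). The Col6a2 probe was detected on 7 arrays. Col8a2, a network-forming collagen, was the brightest of these probes (9.94) and Col14a1, a fibril-associated collagen, the dimmest (5.31, 6 arrays).

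**Figure D3:**
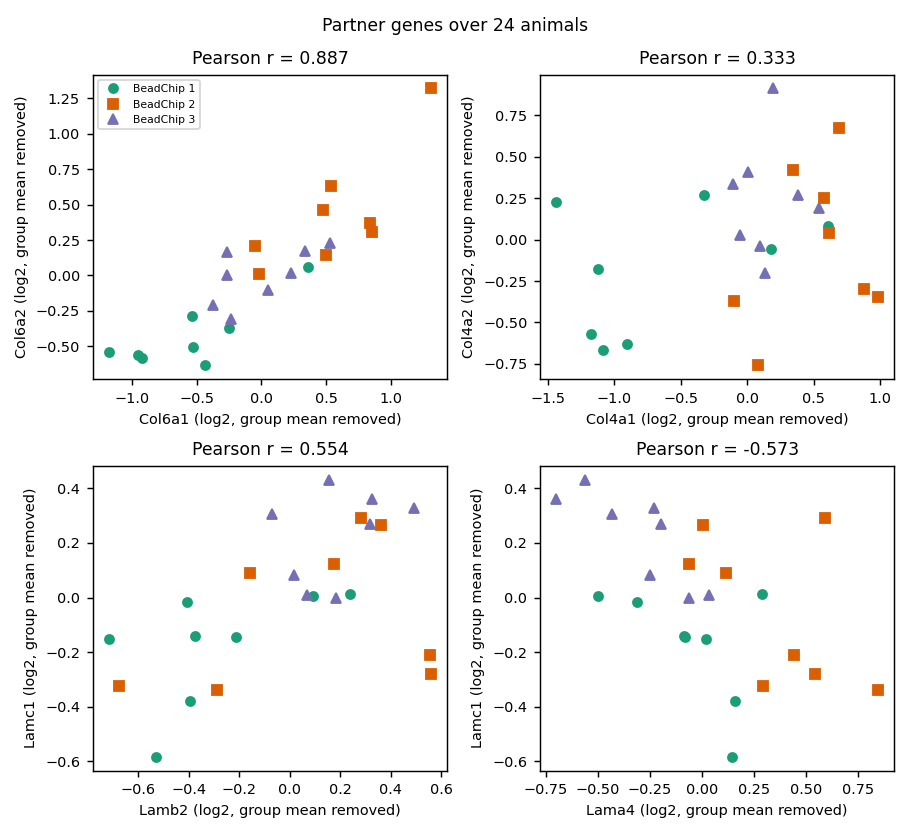
Each panel plots 2 partner genes as log2 intensity minus the group mean, 1 point per animal (n = 24), with the shape giving the BeadChip and the Pearson r above. Col6a1 and Col6a2 line up closely (0.887), Col4a1 and Col4a2 scatter (0.333), and Lamc1 goes up with Lamb2 (0.554) and down with Lama4 (-0.573).

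Of the laminins and nidogens 8 of 10 passed. Lamc1, the gamma chain of most laminins, moved with Lamb2, the beta 2 chain that occurs in vascular basement membranes (r = 0.554, rho 0.517, permutation p = 0.00546 and 0.0112, adjusted p = 0.0175 and 0.0412), and within BeadChips r was 0.557, 0.327 and 0.366. It also moved with Nid1, which links laminin to collagen IV (r = 0.539, adjusted permutation p = 0.0175), although rho was 0.41 and missed the threshold (adjusted permutation p = 0.133). Within BeadChips that r was 0.708, 0.222 and 0.425. With Lama4, an alpha chain of endothelial laminins, it went the other way (r = -0.573, rho -0.594, adjusted permutation p = 0.0175 and 0.0165; -0.479, -0.536 and -0.822 within BeadChips), and the Lama4 probe was detected on 3 arrays, so most of its values lie near the background. Without the 2 farthest animals these 3 relations had r of 0.508, 0.451 and -0.466 and an adjusted permutation p of 0.0757 each. The other pairs tested did not pass: Lama2 with Lamc1 (0.073), Nid1 with Nid2 (0.34), Dcn with Lum (-0.194), Mmp2 with Timp2 (0.294) and Mmp14 with Timp2 (0.068). In all, 4 of 11 pairs passed on r. With the mean of the other matrix genes, Lamb2 had an r of 0.806, Nid1 0.557, Lamc1 0.448 and Lama4 0.124. Relations of the pairs beyond that shared level were not tested.

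No laminin or nidogen was called between groups. Lamb2 ranged in its log2 differences from -0.13 to 0.26, Lamc1 from -0.2 to 0.27 and Nid1 from -0.43 to 0.31. Nid2, the second nidogen and the brightest probe of the role (10.18), ran from -0.41 to 0.34, and Lama4 was the dimmest (5.22). Lamc3 had the largest spread between animals of 1 group among the laminins: its WT values at 3 months were 6.91, 8.17 and 8.71, and those of J20 ran from 6.51 to 8.51. The smallest adjusted p of these 6 genes over all comparisons was 0.701 in limma, for Nid1.

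Lox, the enzyme that crosslinks collagen and elastin, had the smallest unadjusted p of the set. Its log2 intensity at 3 months was 5.25, 5.85 and 6.15 in WT and 5.72, 6.19, 6.32 and 6.43 in J20. At 5-6 months it was 5.97, 6.45, 6.61 and 6.7 in WT and 6.18, 6.65, 6.93 and 7.09 in J20. At 11-12 months WT ran from 5.66 through a median of 5.85 to 6.34, and J20 animals were at 6.58, 6.7 and 6.84. At 11-12 months the 3 J20 animals lay above all 6 WT animals, while at both younger ages the genotypes overlapped. Of all tested probes, 2.64% had J20 above WT without overlap at that age.

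The log2 difference of Lox between J20 and WT was 0.41 at 3 months, 0.28 at 5-6 months and 0.81 at 11-12 months (SE 0.221, 95% interval 0.36 to 1.27, 1.759-fold, unadjusted p = 0.00131, adjusted p = 0.7 in limma). On the 2 BeadChips with J20 animals of 11-12 months it was 0.88 and 0.62, and 0.68 in the fit with slide terms (adjusted p = 0.441 in limma). The 0.88, on BeadChip 2, takes its J20 side from animal 21 alone. Over the 3 ages the difference was 0.5 (95% interval 0.23 to 0.78, unadjusted p = 0.000913, adjusted p = 1 in limma). The 3 genotype differences were not shown to differ from each other (limma's moderated F test over all ages, adjusted p = 0.986). Lox was also higher on average at 5-6 than at 3 months over both genotypes, by 0.62 (95% interval 0.28 to 0.95, unadjusted p = 0.00103, adjusted p = 0.274 in limma, or 0.0732 with slide terms). Within BeadChips 1, 2 and 3 that difference was 0.56, 0.69 and 0.49. The probe is dim: without background correction the difference at 11-12 months was 0.3. Endothelial markers had a median difference of 0.296 between J20 and WT at 11-12 months over all BeadChips. On BeadChip 2 their mean was 7.52 in J20 animal 21 and 7.82 and 7.31 in WT animals 12 and 13. On BeadChip 3 it was 7.68 and 7.65 in J20 animals 28 and 35, and 7.98 and 7.27 in WT animals 26 and 34. WT animals 5 and 6, on BeadChip 1, were at 6.81 and 7.06. The part of endothelial markers in the Lox values was not tested.

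**Figure D4:**
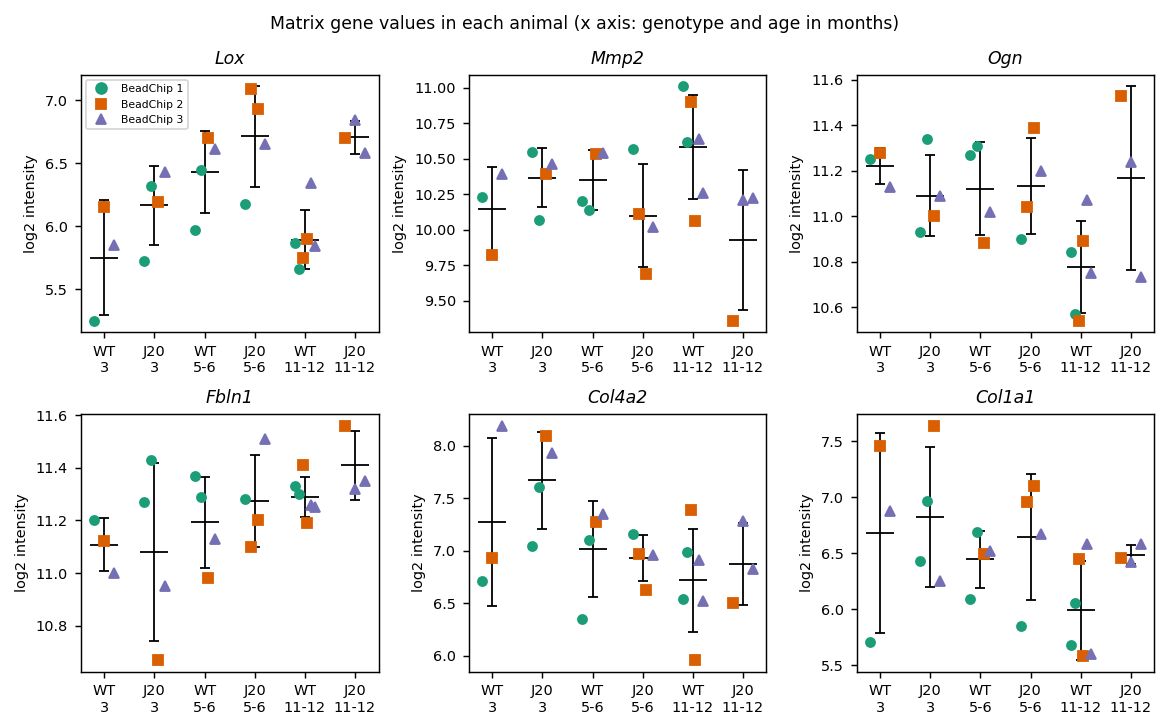
Each panel shows 1 gene, each point 1 animal's log2 intensity, by genotype and age in months, with the shape giving the BeadChip and bars the group mean and SD. For Lox the 3 J20 animals of 11-12 months lie above the 6 WT animals of that age, and for Ogn the 6 WT animals of 11-12 months lie below the 3 of 3 months; the axes are log2 and do not start at 0.

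Of the stromal proteins 7 of 8 passed, with Sparc, a collagen-binding matricellular protein, the brightest (12.2) and Lox the dimmest (6.25). Ogn, or osteoglycin, was at 11.13, 11.25 and 11.28 in WT at 3 months and ran from 10.54 through a median of 10.8 to 11.07 at 11-12 months. These 2 groups did not overlap, as for 1.06% of all probes in that direction, and in J20 the ages overlapped (10.93 to 11.34 at 3 months and 10.73, 11.24 and 11.53 at 11-12 months). The WT difference was -0.44 (SE 0.164, 95% interval -0.78 to -0.1, unadjusted p = 0.0143, adjusted p = 0.821 in limma), and within BeadChips it was -0.54, -0.56 and -0.22. Each of those WT values within a BeadChip has 1 animal of 3 months. Between J20 and WT at 11-12 months Ogn stood at 0.39 (adjusted p = 0.7 in limma), 0.81 and 0.08 within BeadChips. The 0.81 takes its J20 side from animal 21 alone.

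Dcn, or decorin, which binds collagen fibrils and TGF-beta, stayed between 10.92 and 12.5 and its differences between -0.35 and 0.34. Lum ran from -0.36 to 0.13, Bgn from -0.15 to 0.23 and Sparc from -0.47 to 0.16. Second probes of Dcn and Sparc went the other way in J20 minus WT at 11-12 months (0.34 and -0.55 for Dcn, -0.39 and 0.17 for Sparc). Pdgfra, the receptor that marks stromal fibroblasts, ran from -0.29 to 0.12. Its smallest adjusted p over the comparisons was 0.919 in limma.

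The fibulins, which bind basement membranes and elastic fibres, passed with 3 of 5. Fbln1 had the smallest within-group SD of the set by its brightest probe (0.183), but 0.674 by its second probe. The values of the brightest probe were 11, 11.12 and 11.2 in WT at 3 months, and at 11-12 months ran from 11.19 through 11.28 to 11.41. In J20 they were 10.67, 10.95, 11.27 and 11.43 at 3 months and 11.32, 11.35 and 11.56 at 11-12 months. In each genotype the older animals were higher on average and the ages overlapped. The difference over both genotypes was 0.26 (SE 0.105, 95% interval 0.04 to 0.47, unadjusted p = 0.0231, adjusted p = 0.653 in limma). Fbln2 ran from -0.17 to 0.33 over the comparisons and Fbln7, the dimmest (5.42), from -0.36 to 0.29.

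Of the metalloproteinases 6 of 20 passed, and of the TIMPs 3 of 4. Mmp2, the gelatinase A that cuts type IV collagen and gelatin, was at 9.36, 10.21 and 10.22 in J20 at 11-12 months and ran from 10.06 through a median of 10.63 to 11.01 in WT. J20 animals lay at the lower end and overlapped the WT values (-0.65, SE 0.23, 95% interval -1.13 to -0.18, unadjusted p = 0.00962, adjusted p = 0.7 in limma). Without J20 animal 21, the lowest, the difference was -0.37, and within BeadChips it was -1.12 and -0.23. The -1.12, on BeadChip 2, takes its J20 side from animal 21 alone. At 3 months the genotypes overlapped as well, with 9.82, 10.23 and 10.39 in WT and 10.07 to 10.55 in J20. Mmp2 had the smallest interaction p of the set (0.0544, adjusted p = 0.986 in limma).

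Mmp23, a membrane-anchored metalloproteinase, was detected on all 3 arrays of J20 at 11-12 months (5.75, 5.96 and 6.12), on 0 of 4 at 5-6 months and on 1 of 4 at 3 months. In WT it was detected on 1 of 3 arrays at 3 months, 0 of 4 at 5-6 months and 2 of 6 at 11-12 months. Its highest value of all was in WT animal 15 of 3 months (6.21), and WT animal 12 of 11-12 months was at 6.05, among the oldest J20 animals. The oldest J20 animals lay above both younger J20 groups without overlap. Against 5-6 months the probe was at least 1.224-fold higher (fitted difference 0.81, unadjusted p = 0.00429, adjusted p = 1 in limma), against 3 months the difference was 0.71 (adjusted p = 0.81 in limma), and 1.11% and 5.46% of all probes stood apart in these ways. Lox stood apart from 3 months in the same direction and Mmp19 in the other, as did 3.34% of all probes. Mmp14, the membrane enzyme that activates Mmp2, ran from -0.29 to 0.47 over the comparisons. Mmp19, the dimmest (5.05), was detected on 3 arrays, and Mmp9, Mmp3 and Mmp7 on 0. Timp2, which inhibits Mmp2 and helps to activate it, was the brightest probe of the set (13.15) and ran from -0.28 to 0.18. Timp3, the inhibitor bound to matrix, ran from -0.11 to 0.18, and Timp1, the dimmest TIMP (6.15), from -0.38 to 0.39.

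J20 and WT were compared at each age and over the 3 ages. At 3 months 0 of 47 matrix genes had an adjusted p under 0.05 (0% of all 11464 probes) and 0 an unadjusted p under 0.05 (0.898% of all probes). The median log2 difference was -0.025, against 0.005 over all probes. Lox (0.41), Col4a2 (0.39), Col4a1 (0.36), Col8a2 (0.29) and Col15a1 (0.29) stood highest, and Lamc3 (-0.43), Col9a2 (-0.4), Col14a1 (-0.38), Col4a5 (-0.38) and Col16a1 (-0.36) lowest. Without WT animal 1 the median was -0.225, Lox stood at 0.16, Col4a2 at 0.1, Col4a1 at -0.22 and Col15a1 at -0.19. Leaving out 1 animal at a time, Lox ran from 0.16 to 0.62, Col4a2 from 0.1 to 0.84, Col4a1 from -0.22 to 0.86 and Col15a1 from -0.19 to 0.56. Col8a2 was the 1 gene whose groups did not overlap, with J20 higher, as for 0.523% of all probes.

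At 5-6 months 0 of 47 passed (0% of all probes) and Mmp11, or stromelysin 3, had an unadjusted p of 0.0353 (0.37, adjusted p = 1 in limma), against 1.26% of all probes under 0.05. The median was 0.041, but -0.06 with slide terms and -0.098, 0.073 and -0.003 within BeadChips 1, 2 and 3, so its sign was not stable. The highest were Col23a1 (0.51), Timp1 (0.39), Col6a1 (0.39), Col5a1 (0.38) and Mmp11, and the lowest were Nid2 (-0.41), Fbln7 (-0.36), Col11a2 (-0.31), Mmp2 (-0.25) and Mmp1a (-0.23).

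At 11-12 months 0 of 47 passed in limma (0% of all probes). An unadjusted p under 0.05 was found for 4 (8.51%), with Lox, Mmp23 and Ogn higher and Mmp2 lower in J20, against 5.85% of all probes. The median was 0.15, with 33 of 47 (70.2%) above 0, against a median of 0.024 and 53.2% of all probes above 0. That lean was not seen within BeadChips, where the median was -0.016 on BeadChip 2 and 0.036 on BeadChip 3. The BeadChip 2 value takes its J20 side from animal 21 alone. Slide terms gave a median of 0.095. By role, 4 of 4 fibrillar collagens, 4 of 7 basement membrane collagens, 7 of 9 other collagens, 6 of 8 laminins and nidogens, 3 of 3 fibulins, 4 of 7 stromal proteins, 4 of 6 metalloproteinases and 1 of 3 TIMPs were above 0. Col4a1 (0.59), Col1a1 (0.49) and Col16a1 (0.42) were the highest after Lox, and Sparc (-0.39), Lum (-0.31), Col4a3 (-0.29) and Timp1 (-0.25) the lowest after Mmp2. In the same comparison 10 of 12 endothelial markers were above 0 (median 0.296). Pericyte markers had a median of 0.436, macrophage markers -0.27, neuronal markers -0.391 and glial markers -0.494. These medians are over all BeadChips, and endothelial means by BeadChip are given with Lox above. The part of these markers in the matrix values was not tested.

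Over the 3 ages 0 of 47 passed (0% of all probes), and Lox alone had an unadjusted p under 0.05 (1.98% of all probes). Col4a1 (0.35), Fbln2 (0.28), Col1a1 (0.28) and Col5a1 (0.24) followed it, and Mmp2 (-0.23), Col4a5 (-0.22), Col9a2 (-0.15), Lum (-0.15) and Nid2 (-0.13) were lowest. For all 47 genes the 95% interval lay within 1 log2 unit of 0. At single ages the intervals were that narrow for 39 genes at 3 months, 41 at 5-6 months and 34 at 11-12 months. These are intervals of probe values. For probes near background, such as those of Lama4, Mmp19 and Col2a1 (each detected on 3 arrays), they do not bound the change of the transcript. The interaction of genotype and age had an adjusted p under 0.05 for 0 of 47 (0% of all probes) and an unadjusted one for 0 (1.47% of all probes).

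**Figure D5:**
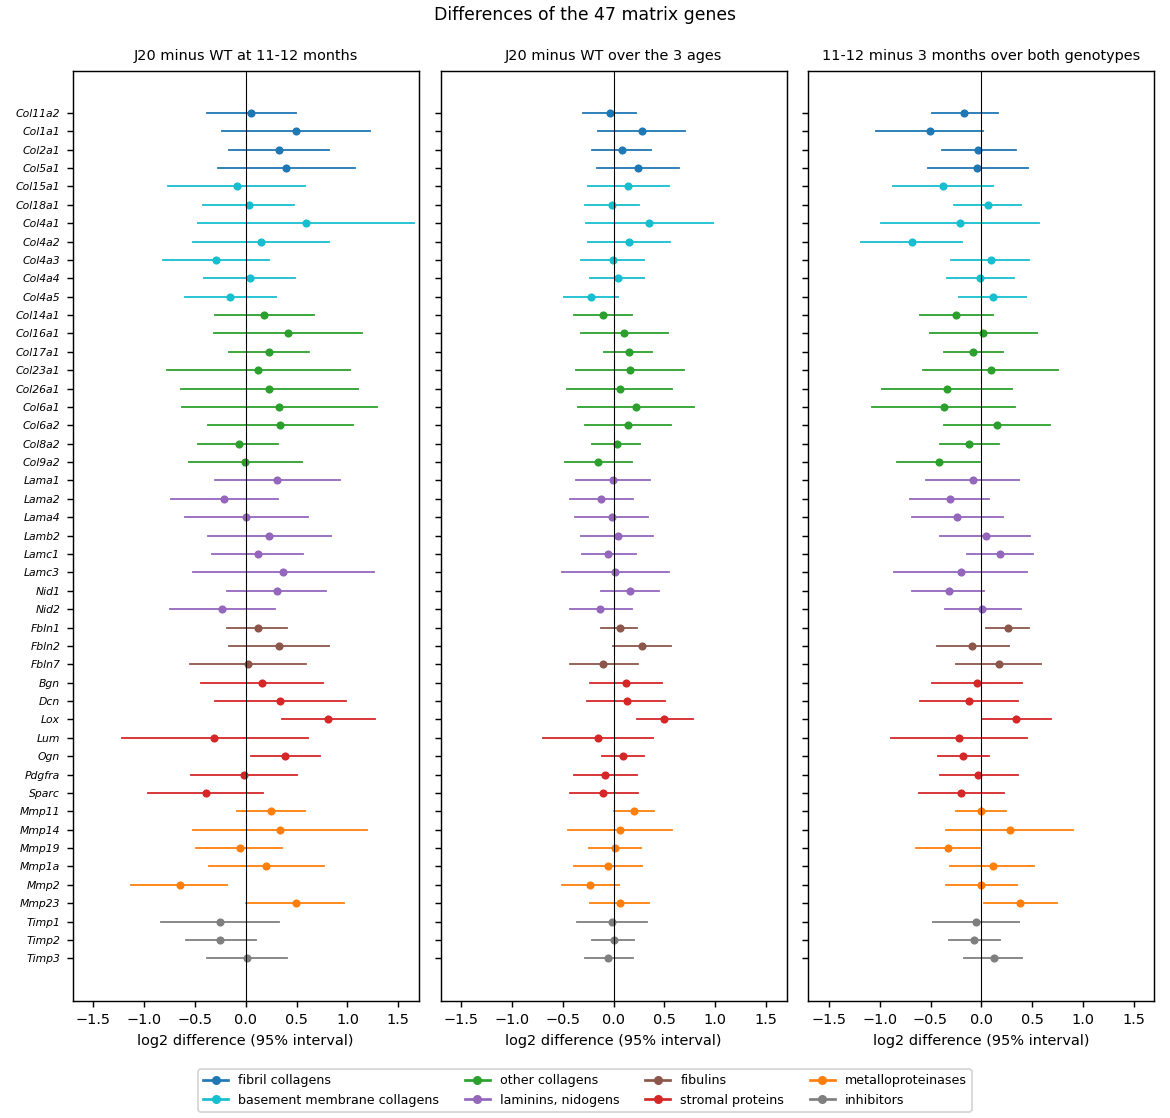
Each point is the log2 difference of 1 of 47 matrix genes with its 95% interval from limma, in J20 minus WT at 11-12 months, J20 minus WT over the 3 ages and 11-12 minus 3 months over both genotypes, coloured by role. Most intervals cross 0; Lox is highest in both genotype panels (0.81 and 0.5) and Col4a2 lowest in the age panel (-0.68).

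With age, WT animals showed 0 of 47 calls between 5-6 and 3 months (0% of all probes), between 11-12 and 3 months (0.105% of all probes) and between 11-12 and 5-6 months (0.0436%). Unadjusted p values under 0.05 numbered 1, 3 and 2, against 2.57%, 4.41% and 1.65% of all probes. Between 11-12 and 3 months the 3 were Ogn, Col9a2 (-0.62), a chain of a fibril-associated cartilage collagen, and Col14a1 (-0.53), all lower. No WT array of 11-12 months detected Col14a1, and the bound was at least 1.095-fold lower. In all, 14 of 47 genes were above 0, against 50.1% of all probes, with a median of -0.128. That median was -0.31 without WT animal 1 of 3 months and 0.13 with array weights. Col1a1 (-0.69), Lamc3 (-0.6), Col26a1 (-0.57) and Col6a1 (-0.57) were also among the 5 lowest, and Mmp2 (0.44), Col4a3 (0.3), Nid2 (0.25), Fbln7 (0.19) and Fbln1 (0.18) were highest. Endothelial markers had a median of -0.425 in that comparison, with 10 of 12 below 0, and their part in the matrix values was not tested.

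The ends of the other WT comparisons were as follows. From 3 to 5-6 months Lox (0.68), Mmp14 (0.37), Nid2 (0.34), Fbln7 (0.28) and Col8a2 (0.26) were highest, and Col16a1 (-0.44), Col23a1 (-0.42), Col2a1 (-0.42), Col6a1 (-0.36) and Lamc3 (-0.36) lowest. The Col2a1 values of the 2 ages did not overlap, as for 1.41% of all probes, but its probe was detected on 1 of 3 and 0 of 4 arrays, so no fold is given. From 5-6 to 11-12 months Col23a1 (0.37), Timp1 (0.26), Mmp2 (0.23), Mmp23 (0.18) and Mmp11 (0.16) were highest, and Lox (-0.54), Col1a1 (-0.45), Col4a1 (-0.44), Col9a2 (-0.4) and Col11a2 (-0.39) lowest.

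In J20 the counts of calls were 0 of 47 between 5-6 and 3 months (0% of all probes), between 11-12 and 3 months (0.0611%) and between 11-12 and 5-6 months (0.0349%). Unadjusted p values under 0.05 numbered 2, 4 and 1, against 3.18%, 5.31% and 1.34% of all probes. From 3 to 11-12 months they belonged to Mmp23 (0.71), Lox (0.54), Fbln1 (0.33) and Col4a2 (-0.8), and Mmp14 (0.47), Col16a1 (0.41), Col15a1 (-0.57), Sparc (-0.47), Mmp2 (-0.44) and Mmp19 (-0.37) completed both ends. From 3 to 5-6 months Lox (0.55), Col4a5 (0.42), Mmp14 (0.31), Timp1 (0.3) and Col5a1 (0.28) were highest, and Col4a2 (-0.74), Col15a1 (-0.35), Nid2 (-0.33), Mmp2 (-0.27) and Nid1 (-0.27) lowest. From 5-6 to 11-12 months Mmp23 (0.81), Col2a1 (0.39), Fbln7 (0.29), Lamb2 (0.26) and Mmp1a (0.25) were highest, and Lama2 (-0.38), Timp1 (-0.38), Col9a2 (-0.35), Lum (-0.35) and Col4a3 (-0.32) lowest. The WT and J20 comparisons use separate animals, and the interaction test above is the test of their difference.

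Over both genotypes 0 of 47 passed between 5-6 and 3 months (0.0698% of all probes), between 11-12 and 3 months (0.358%) and between 11-12 and 5-6 months (0.0523%). Unadjusted p values under 0.05 numbered 2, 6 and 1, against 4.14%, 5.97% and 1.33% of all probes. The 6 between 11-12 and 3 months were Mmp23 (0.38), Lox (0.34), Fbln1 (0.26), Col4a2 (-0.68), Col9a2 (-0.42) and Mmp19 (-0.33), and Mmp14 (0.28), Lamc1 (0.18), Col1a1 (-0.51), Col15a1 (-0.38) and Col6a1 (-0.37) lay at the ends too. The median was -0.054, and -0.148 with slide terms. It was -0.327 within BeadChip 2 and -0.036 within BeadChip 3. In all, 44 of 47 intervals lay within 1 log2 unit of 0, with the limit given above for probes near background. From 3 to 5-6 months Lox (0.62), Mmp14 (0.34), Col4a5 (0.3), Col4a3 (0.21) and Col6a2 (0.2) were highest, and Col4a2 (-0.5), Col15a1 (-0.31), Col2a1 (-0.29), Nid1 (-0.28) and Col1a1 (-0.21) lowest. From 5-6 to 11-12 months Mmp23 (0.5), Col2a1 (0.27), Col23a1 (0.17), Col16a1 (0.16) and Lamb2 (0.13) were highest, and Col9a2 (-0.37), Col1a1 (-0.31), Lama2 (-0.29), Lum (-0.28) and Lox (-0.27) lowest.

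Genes that work with the matrix proteins gave 0 calls in limma in any comparison. Of 27 genes of collagen maturation 18 passed the detection filter. Plod2, a lysyl hydroxylase of collagen telopeptides, stood at 0.66 in J20 minus WT at 11-12 months (unadjusted p = 0.00959, adjusted p = 0.7 in limma), and P4ha2, a prolyl hydroxylase chain, at 0.29 between 5-6 and 3 months over both genotypes (adjusted p = 1 in limma). Of 33 other structural matrix genes 18 passed. Thbs3, a thrombospondin, stood at -0.42 between 11-12 and 3 months in WT (unadjusted p = 0.00742, adjusted p = 0.67 in limma), and Vtn, or vitronectin, at -0.33 in J20 minus WT at 11-12 months. The group-centred mean of those 18 had an r of 0.97 with that of the 47 matrix genes over the 24 arrays, so the animal-to-animal level described above was shared by matrix genes outside the set.

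Of 19 TGF-beta pathway genes 14 passed. Pmepa1, a TGF-beta target and feedback inhibitor, was detected on 5 of 6 WT and 0 of 3 J20 arrays at 11-12 months, with means of 5.8 and 4.95. It was at least 1.069-fold higher in WT, a bound set by the lowest detected signal (unadjusted p = 0.0109, adjusted p = 0.7 in limma). Pmepa1 was also undetected on every WT array of 3 months. Tgfb2, a ligand, stood at 0.44 between 5-6 and 3 months over both genotypes (adjusted p = 1 in limma). Of 24 matrix receptors 14 passed. Itga3, an integrin chain that binds laminin, stood at 0.21 in J20 minus WT over the 3 ages (unadjusted p = 0.00867, adjusted p = 1 in limma), and Itga5, the fibronectin receptor chain, at 0.42 between 5-6 and 3 months over both genotypes (adjusted p = 1 in limma).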

How the data were processed

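RNA of 24 choroid plexus samples was extracted with the RNeasy Plus Micro kit and labelled as biotin cRNA with an Ambion MessageAmp kit, per the labels. The deposited table holds 1 linear probe intensity per array, with a detection p-value beside it, for 25697 probes, per the file headers. The values show no background subtraction or scaling. The authors also deposited log2 values, which were checked and equal the quantile-normalized log2 intensity to within 5e-09. For scanner and summary software the sources used here give nothing. Symbols came from the platform's probe table, updated through gene identifiers for 23962 probes; 23978 probes had 1 symbol and 1719 had none. Values in 0 sample columns were left out.

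Background correction (normexp, offset 16, negative controls inferred from detection p-values), quantile normalization and log2 were done by neqc, limma 3.58.1, R 4.3.3. The test took the 11464 probes that 3 or more arrays detected at p below 0.01; 10825 had a symbol. One limma fit (lmFit, eBayes) of 6 group means gave all comparisons, with Benjamini-Hochberg adjustment over all tested probes. It was tested on simulated data. BeadChips were assigned by the order of the samples. Differences within a BeadChip are differences of means, which for some groups is the value of 1 animal. A fold against a group with no detecting array is a bound, for which undetected values were raised to the lowest detected value of their array. Replicates are separate animals, 1 array each, and their number limits the precision. Pairs of genes were tested by permutation (100000 draws over 24 arrays, exact within 8 arrays, 2-sided). Promoter windows are RefSeq's, on GRCm38.p6.

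The members, lists and tests were chosen with earlier results of these data known. Genes were named by rule: 24 listed matrix genes, of which those that passed are given by their range over the comparisons, the 5 highest and 5 lowest of each comparison, the brightest and dimmest of each role, the 5 most and least variable, the 10 outside genes most like the matrix mean and the 2 pathway genes per list with the smallest p. Alternatives were the BeadChip as a block, array weights, no background correction, other detection filters, the mean over a gene's probes and leaving out each array.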

Additional observations from a re-analysis of the deposited data

Results flagged for a closer look

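In 192 groups of 4 to 6 values tested for a single animal far from the rest of its group (Dixon's test), 7 stood out, or 3.65%, where chance gives about 5%. The mean of the 47 matrix genes was 7.54 in WT animal 3 of 5-6 months, below the nearest of the other 3 at 7.84; this animal's array lies on BeadChip 1. Lox was 6.34 in WT animal 26 of 11-12 months, above the nearest of the other 5 at 5.9 and below the lowest J20 animal of that age. J20 animal 2 of 3 months was low in Col4a1 (7.4, nearest 8.48) and in Nid2 (9.95, nearest 10.38). Col8a2 was 10.51 in J20 animal 9 of 3 months (nearest 9.99). Fbln2 was 6.84 in J20 animal 18 of 5-6 months (nearest 6.2), and Timp1 was 5.59 in J20 animal 4 of that age (nearest 6.51). Removing any 1 of these animals led to 0 calls among the matrix genes in limma.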

How the results depend on the processing

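The count of 0 called matrix genes held in all 14 comparisons with the BeadChip as a block, without background correction, with all probes tested, with detection on at least 12 arrays (36 matrix genes left), with the mean over a gene's probes, and without any 1 array (0 to 0). Array weights in limma moved it to 3 in J20 minus WT at 11-12 months (Lox, Col2a1 and Mmp23 higher; the Col2a1 probe was detected on 1 J20 and 0 WT arrays of that age, and its unweighted difference was 0 without J20 animal 35), to 1 in J20 11-12 minus 3 months (Mmp23), to 1 in 5-6 minus 3 months over both genotypes (Lox) and to 3 in 11-12 minus 3 months over both genotypes (Lox and Mmp23 higher, Mmp19 lower). Weights raised the calls over all probes in the same comparisons, to 267 (2.33%), 256 (2.23%), 35 (0.305%) and 548 (4.78%). The Lox difference at 11-12 months was 0.7 with weights (adjusted p = 0.0345) and 0.3 without background correction; the cause was not tested. The 4 pairs that passed became 1 without the 2 farthest animals and 0, 0 and 0 within BeadChips 1, 2 and 3, where 8 arrays were left. Of single-gene differences, 18103 kept their side of the threshold and moved by less than the spread, 76 moved more and 8 passed, all with weights. The median over the matrix genes moved from -0.025 in J20 minus WT at 3 months to -0.225 without WT animal 1 of 3 months and to 0.185 with weights, and weights took those of WT 5-6 minus 3 months to 0.192 and of 5-6 minus 3 months over both genotypes to 0.163. Signal near background limits genes such as Lama4, Mmp19 and Col2a1, each detected on 3 arrays. No paired analysis was possible because each animal has its own number and no number is shared between groups.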

Other observations

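Where a second probe of a matrix gene passed the filter, the 2 probes did not always run together. Over the 24 arrays the group-centred r between the probes was 0.941 for Col6a1, 0.875 for Timp1, 0.785 for Col4a4 and 0.611 and 0.502 for the 2 further probes of Col17a1. It was 0.138 for Sparc, 0.068 for Col18a1, 0.061 for Timp3, -0.021 for Dcn and -0.182 for Fbln1. In J20 minus WT at 11-12 months the brightest and the second probe stood at 0.34 and -0.55 for Dcn, at -0.39 and 0.17 for Sparc and at 0.12 and -0.38 for Fbln1, so the direction of these genes there rests on the choice of probe. Between 11-12 and 3 months over both genotypes the 2 Fbln1 probes stood at 0.26 and 0.27.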
